A study of Mus musculus with 188 samples.

Results

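The genes described here are the 7 that carry cystine import and glutathione synthesis in mouse brain slice cultures (BSC): Slc7a11, Slc3a2, Gclc, Gclm, Gss, Gsr and Glrx. They were taken by symbol through their Ensembl identifiers, and the set was chosen with earlier results of these data known. All 7 were listed among 25655 genes in the batch 1 libraries and among 25528 genes in the libraries of batches 2 and 3, and all 7 passed the filter on low counts, under which 15554 and 16473 genes were tested. The study asked how haptoglobin (Hp) and hemopexin (Hpx), the plasma proteins that bind hemoglobin (Hb) and heme, change the response of brain tissue to these red blood cell toxins. Coronal slices from brains of wild-type C57BL/6J mice, 6 to 8 weeks old and of both sexes, were cultured on inserts and exposed on day 7, and polyadenylated RNA was sequenced.

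Of 188 libraries, 167 carried labels that gave their group without conflict, in 18 groups. Batch 1 held 60 libraries collected at 24 h, 10 in each group: vehicle control, heme-albumin (heme on its low-affinity plasma carrier) at 12.5, 50, 200 and 400 µM, and heme bound to Hpx (hemeHpx) at 200 µM. Batches 2 and 3 held the remaining grouped libraries, at 24 h and 48 h. These were controls (10 at 24 h and 9 at 48 h), Hb at 200 and 400 µM (10 in each group), the Hb-Hp complex (HbHp) at 200 µM (8 at each time) and at 400 µM (4 at 24 h and 5 at 48 h), and Hp alone at 400 µM (12 at 24 h and 11 at 48 h). All groups shared the strain, the slicing procedure and a culture that began in horse serum and was changed to serum-free medium before exposure, and the Hb, Hp, Hpx and albumin were human proteins. The model is tissue cut from adult brain, cultured without blood flow, with a pair of slices on each insert. The labels do not tie libraries to animals, so the p-values measure the spread between libraries, part of which may be technical. For hemeHpx, the titles name haptoglobin whereas the treatment labels and library names give hpx, and the treatment label was followed.

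Cystine, the oxidised dimer of cysteine, enters cells through system xc-, an exchanger for glutamate made of the transport subunit Slc7a11 (xCT) and the heavy chain Slc3a2 (4F2hc, CD98), which also holds other amino acid transporters at the membrane. Glutamate-cysteine ligase, a dimer of the catalytic subunit Gclc and the modifier subunit Gclm, joins cysteine to glutamate in the rate-limiting step, and glutathione synthetase (Gss) adds glycine. Glutathione reductase (Gsr) returns oxidised glutathione to its reduced form with NADPH, and glutaredoxin (Glrx) uses glutathione to remove it from protein thiols. In brain, astrocytes are known as the main suppliers of glutathione and of its precursors to neurons, and several of these genes are textbook targets of the stress-response factors NRF2 and ATF4.

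Promoter sequence is shown for Slc7a11 and Gclm, because they are the members whose available promoters held the searched motifs. The 250 bases before the RefSeq start on GRCm38.p6 lie at chr3:50443614-50443863 for Slc7a11 (minus strand) and at chr3:122245307-122245556 for Gclm (plus strand). Both are printed from 5′ to 3′ on the strand of the gene, with motif matches in capitals.
Slc7a11: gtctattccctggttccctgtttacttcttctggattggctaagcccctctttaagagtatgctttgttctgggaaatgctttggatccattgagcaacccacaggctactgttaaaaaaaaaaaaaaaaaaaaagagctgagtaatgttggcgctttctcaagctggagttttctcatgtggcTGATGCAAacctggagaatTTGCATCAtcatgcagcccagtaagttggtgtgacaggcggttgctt
Gclm: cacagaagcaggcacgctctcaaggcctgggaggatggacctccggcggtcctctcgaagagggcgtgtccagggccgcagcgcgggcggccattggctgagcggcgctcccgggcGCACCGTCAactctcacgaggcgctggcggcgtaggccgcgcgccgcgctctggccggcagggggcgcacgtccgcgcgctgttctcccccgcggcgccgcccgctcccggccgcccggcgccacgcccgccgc
The core of the antioxidant response element was searched as TGACNNNGC and the C/EBP-ATF composite element, which ATF4 dimers bind, as TGATGNAA, on both strands. The letters TGAC also begin AP-1 sites, and a match is a description of the letters and not of binding. The Slc7a11 window held 2 matches of TGATGNAA, 66 to 59 bases before the start on the gene's strand and 47 to 40 bases before it on the other strand. The Gclm window held 1 match of TGACNNNGC on the other strand, 134 to 126 bases before the start. Neither motif was present in the windows of Slc3a2, Gss and Glrx, and the promoters of Gclc and Gsr were not analysed here. Among 32851 RefSeq promoters of the same length, 10.2% held TGACNNNGC and 3.45% held TGATGNAA.

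The number of members called with heme-albumin went from 1 of 7 at 12.5 µM and 3 of 7 at 50 µM to 7 of 7 at 200 µM and 6 of 7 at 400 µM, and all were higher than control except Glrx, which was lower at 200 µM. A call is an adjusted p below 0.05 in the quasi-likelihood F test of edgeR, after Benjamini-Hochberg correction across every gene tested. The share of all tested genes called was 0.045% at 12.5 µM, 0.463% at 50 µM, 13.6% at 200 µM and 29% at 400 µM. The hemeHpx complex at 200 µM called 0 members in edgeR, where 8.2% of all genes were called. There, 2 members had an unadjusted p below 0.05 and DESeq2 called 1.

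Slc7a11 had the highest fold change of the 7 at every dose from 12.5 µM upwards. Its level, as CPM (read counts scaled to a common library total), had a median of 187.8 over the control libraries, which spanned 101.6 to 220.5. The corresponding lowest, median and highest values were 157, 307.8 and 364.7 CPM at 12.5 µM, and 222.9, 403.1 and 620.2 CPM at 50 µM. At 200 µM they were 446.8, 506.1 and 683.4 CPM, and at 400 µM 502.2, 610.3 and 1018 CPM. From 50 µM upwards, every treated library lay above every control library. The log2 fold change was 0.66 ± 0.15 (SE) at 12.5 µM (adjusted p = 0.0569), 1.09 ± 0.15 at 50 µM (adjusted p = 8.05e-07), 1.54 ± 0.15 at 200 µM (adjusted p = 1.04e-11) and 1.90 ± 0.15 at 400 µM (adjusted p = 1.72e-15), the last of these a 3.73-fold difference. The 12.5 µM value passed the threshold under DESeq2 (adjusted p = 0.0135) and under 4 other settings.

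**Figure D1:**
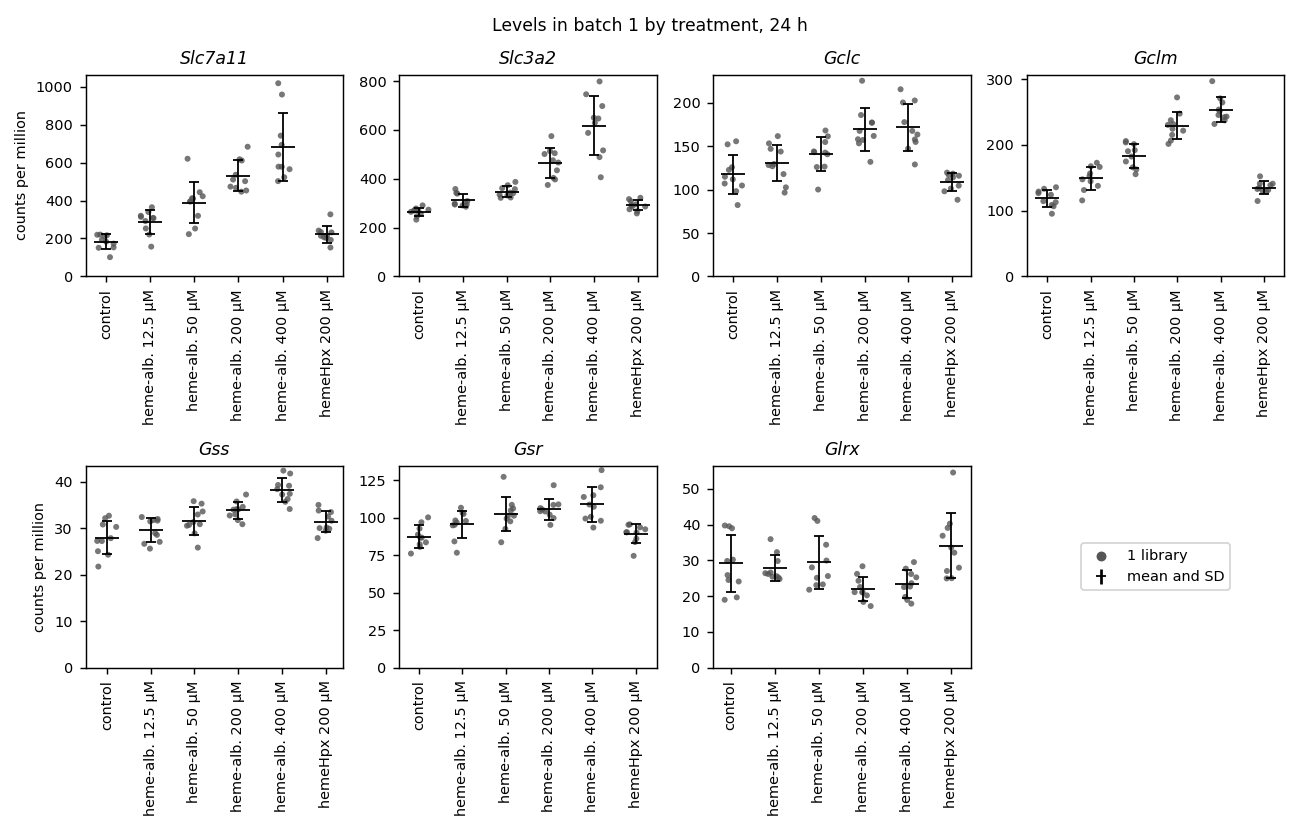
Level of each member in the 60 batch 1 libraries, in CPM on the vertical axis (each panel with its own scale) against the 6 groups on the horizontal axis. Points are libraries and bars are the mean with 1 SD (n = 10 in each group). Slc7a11, Slc3a2 and Gclm at 200 and 400 µM heme-albumin lie above all 10 controls, while hemeHpx libraries overlap the controls for all 7 genes. The share of all genes that separated or overlapped in these ways was not counted.

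Slc3a2, the heavy chain, moved with a smaller fold change and a tight spread in the control libraries, which ran from 232.6 to 291 CPM (median 269.8). It reached 374.7 to 574.7 CPM (median 471) at 200 µM and 406.3 to 798.7 CPM (median 638.2) at 400 µM. Its groups stopped overlapping the controls at 50 µM, where the log2 fold change was 0.39 ± 0.07 (adjusted p = 0.00106), and it rose to 0.81 ± 0.07 at 200 µM (adjusted p = 2.24e-12) and 1.22 ± 0.07 at 400 µM (adjusted p = 1.01e-19). Slc3a2 was the member for which the last dose step was also called: 400 µM exceeded 200 µM by a log2 fold change of 0.41 ± 0.07 (adjusted p = 0.000749). With only those 2 groups in the fit the same difference gave an adjusted p of 0.113.

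Gclm, the modifier subunit, was the member called at every heme-albumin dose. Its controls ran from 95.34 to 135.6 CPM (median 119.3), and the 12.5 µM libraries from 115.6 to 172.8 CPM (median 150.2). The libraries at 50 µM ran from 155.4 to 205.8 CPM (median 186.3), those at 200 µM from 201.5 to 272.2 CPM (median 227.5) and those at 400 µM from 231.8 to 296.9 CPM (median 248.5). The 12.5 µM libraries overlapped the controls, with 8 of 10 above all of them, and from 50 µM there was no overlap. The log2 fold changes were 0.33 ± 0.06 (adjusted p = 0.00824), 0.63 ± 0.06 (adjusted p = 6.02e-10), 0.95 ± 0.06 (adjusted p = 1.32e-17) and 1.10 ± 0.06 (adjusted p = 7.65e-21) in order of dose. With only the 2 groups compared in the fit, the 12.5 µM value was not called (adjusted p = 0.291).

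The catalytic subunit Gclc was called at 200 and 400 µM only, and its libraries overlapped the controls at both doses. Controls ran from 82.32 to 155.8 CPM (median 113.4), against 132.1 to 225.6 CPM (median 164.9) at 200 µM and 129.1 to 215.8 CPM (median 165.7) at 400 µM. Its log2 fold changes were 0.53 ± 0.10 (adjusted p = 9.55e-05) and 0.55 ± 0.10 (adjusted p = 1.35e-05), and between these doses the difference was 0.02 (95% interval -0.18 to 0.21). Gss had the lowest level per kilobase of exon in these controls, 4.73 CPM per kb against 75.2 for Slc3a2, 31.8 for Gsr, 31.2 for Gclc, 18.9 for Gclm, 13.1 for Slc7a11 and 5.31 for Glrx. It went from 21.79 to 32.73 CPM (median 27.6) in the controls to 30.91 to 37.3 CPM (median 34.08) at 200 µM and 34.18 to 42.45 CPM (median 37.96) at 400 µM, where no library overlapped the controls. The log2 fold changes of Gss were 0.27 ± 0.06 (adjusted p = 0.000672) and 0.45 ± 0.06 (adjusted p = 1.3e-08). Gss shares its locus with Acss2, Gssos1 and Gssos2 on the opposite strand, and whether the counting used strand is not given in the sources used here, so without strand the reads of Gss and of these genes cannot be told apart. Slc7a11, Gclm and Gsr also overlap other annotated genes. Some of these lie on the same strand: Gm37498 and Gm37692 for Slc7a11, Gm6061 for Gclm and Gm24727 for Gsr.

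Gsr was called at the same doses. Its controls ran from 76.2 to 100.4 CPM (median 86.82), the 200 µM libraries from 95.32 to 121.8 CPM (median 105.1) and the 400 µM libraries from 93.55 to 131.9 CPM (median 108.2), and the groups overlapped at both doses. Log2 fold changes were 0.27 ± 0.06 (adjusted p = 0.000865) and 0.32 ± 0.06 (adjusted p = 3.12e-05). Between adjacent heme-albumin doses, 0 members were called from 12.5 to 50 µM in edgeR (3 at an unadjusted p below 0.05, 1 in DESeq2), with 0% of all genes called. From 50 to 200 µM, 2 members were called, Slc3a2 at 0.42 ± 0.07 (adjusted p = 0.000939) and Gclm at 0.32 ± 0.06 (adjusted p = 0.00328), with 0.797% of all genes. From 200 to 400 µM Slc3a2 was the 1 member called, with 1.27% of all genes.

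Glrx was the exception. Its level was 19 to 39.77 CPM (median 27.88) in the controls, 17.24 to 28.38 CPM (median 21.12) at 200 µM and 17.92 to 29.53 CPM (median 23.17) at 400 µM, and 2 libraries at each dose lay below all controls. The log2 fold change was -0.40 ± 0.13 at 200 µM (adjusted p = 0.0351) and -0.31 ± 0.13 at 400 µM (adjusted p = 0.0679). The call at 200 µM was lost without the filter on low counts (adjusted p = 0.0538), with a correction for GC content and length (adjusted p = 0.0536) and with only the compared groups in the fit (adjusted p = 0.061). Microglial markers moved with it: all 4 of Cx3cr1, P2ry12, Tmem119 and Csf1r were lower at 200 µM, with a median log2 fold change of -0.96, and 2 of 4 were lower at 400 µM. Their summed level was 51.37 to 173.8 CPM in the controls (median 87.36), 32.38 to 77.99 CPM at 200 µM (median 50.27) and 30.26 to 105.3 CPM at 400 µM (median 63.24), with none of the 4 at a mean of 0 CPM. In bulk libraries, fewer cells of a type and less RNA per cell cannot be told apart, and the part of microglia in the Glrx result was not tested. Of 5 astrocyte markers, Aqp4 and Gfap were called lower at 200 µM and the others were not called, with summed levels of 6112 to 10580 CPM in controls (median 9357) and 5515 to 9828 CPM at 200 µM (median 7056). None of the 5 neuronal and 5 oligodendrocyte markers was called at either dose in edgeR.

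Bound to Hpx, the same 200 µM of heme left the members near control levels. Slc7a11 ran from 152.4 to 327.2 CPM (median 214.1) and overlapped the controls, with a log2 fold change of 0.28 and a 95% interval of -0.01 to 0.57. Gclm ran from 114.7 to 152.2 CPM (median 133.9), 4 of 10 libraries lay above all controls, and the log2 fold change of 0.18 (95% interval 0.06 to 0.31) gave an adjusted p of 0.0538. Gss, at 27.92 to 35.06 CPM (median 30.93), was also close to the threshold with 0.16 (95% interval 0.05 to 0.28, adjusted p = 0.0572). For Slc3a2 the difference from control was 0.13 (95% interval -0.02 to 0.28), for Gclc -0.11 (-0.30 to 0.09), for Gsr 0.03 (-0.09 to 0.15) and for Glrx 0.23 (-0.03 to 0.49). These intervals leave room for small differences in either direction for Gclc and Gsr. The call of Gclm was gained under 5 other settings, listed with the processing.

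The direct test of hemeHpx against heme-albumin at 200 µM called 6 of 7 members, with 25.9% of all genes called. Slc7a11 was lower by a log2 fold change of -1.26 ± 0.15 (adjusted p = 5.68e-09), Slc3a2 by -0.68 ± 0.07 (adjusted p = 1.19e-09), Gclc by -0.64 ± 0.10 (adjusted p = 3.61e-06) and Gclm by -0.77 ± 0.06 (adjusted p = 2.49e-13). For these 4 genes all 10 hemeHpx libraries lay below all 10 heme-albumin libraries. The share of all genes that separated in this way was not counted. Gsr was lower by -0.24 ± 0.06 (adjusted p = 0.0024) and Gss by -0.11 ± 0.06, which was not called (adjusted p = 0.147). Glrx was higher with hemeHpx by 0.63 ± 0.13 (adjusted p = 0.000603), with 6 of 10 libraries above all heme-albumin libraries. Its hemeHpx libraries ran from 24.98 to 54.58 CPM (median 32.89). Microglial markers again moved in the same direction, 3 of 4 higher with a median of 0.94. Their summed levels were 50.36 to 135 CPM (median 98.35) in hemeHpx. The summed medians of every other cell type list were also higher than with heme-albumin 200 µM. They went from 53.8 to 91.73 CPM for border macrophages and from 310 to 405.9 CPM for neurons. The part of any cell type in the Glrx difference was not tested.

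In batches 2 and 3, the library names carry the prefix E1 or E2, here called the experiment, and groups were not spread evenly over batch and experiment. All HbHp and Hp alone libraries were batch 3, all HbHp libraries were E2, and 15 of 19 controls were batch 2. The Hp alone libraries of E1 and E2 stood apart, as given with Hp alone below. Fold changes here are adjusted for batch and experiment, so they can differ from the ratio of the printed CPM. Because the Hp alone libraries carry weight in that adjustment, results of Hb and HbHp are also given without these 23 libraries, and those of HbHp within E2. Both of these additions were made after seeing the data. Batch 3 held 1 control of E1 and 1 of E2 at each time, so within batch 3 the comparisons rest on 2 controls per time.

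With batch and experiment in the fit, Hb raised Gclm and Gsr at each dose and time, and Slc7a11 and Gclc at 400 µM. At 200 µM 2 of 7 members were called at 24 h (0.0971% of all genes) and 2 of 7 at 48 h (0.31%). At 400 µM there were 5 of 7 at 24 h (0.522% of all genes) and 4 of 7 at 48 h (0.601%), all higher. With the batch term but no experiment term, Gclm was called in all 4 comparisons, whereas Slc7a11 and Gclc at 400 µM were not called at either time and Gsr was called only with 400 µM at 24 h. Without the Hp alone libraries the counts were 4 at 200 µM and 24 h (0.197% of all genes), 4 at 200 µM and 48 h (0.347%), 5 at 400 µM and 24 h (0.448%) and 4 at 400 µM and 48 h (0.598%).

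Gclm was the clearest of the Hb responses. Its lowest, median and highest levels were 91.57, 115.3 and 138.7 CPM in the 24 h controls, 136.7, 158.5 and 213.2 CPM with Hb 200 µM and 159.3, 196.2 and 240.3 CPM with Hb 400 µM. At 48 h they were 82.26, 117.6 and 137.6 CPM in the controls, 148.2, 172.2 and 223.3 CPM with 200 µM and 144.9, 184 and 225.9 CPM with 400 µM. Only the 200 µM group at 24 h overlapped its controls, by 1 library of 10. The log2 fold changes were 0.52 ± 0.10 (adjusted p = 0.00582) and 0.83 ± 0.10 (adjusted p = 2.19e-08) at 24 h for 200 and 400 µM, and 0.66 ± 0.11 (adjusted p = 3.64e-05) and 0.77 ± 0.11 (adjusted p = 5.38e-07) at 48 h. Within batch 2 alone the 4 values lay between 0.49 and 0.78 and all were called, whereas within batch 3 alone they lay between 0.46 and 0.89 and none was called.

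The transporter responded to Hb with a wide spread. Slc7a11 ran from 60.53 to 226.5 CPM (median 164) in the 24 h controls, from 152.5 to 445.9 CPM (median 227.1) with 200 µM and from 181.4 to 330.5 CPM (median 278) with 400 µM, so all groups overlapped. At 48 h the controls ran from 36.04 to 262.2 CPM (median 139.7), the 200 µM libraries from 85.61 to 313.2 CPM (median 264.4) and the 400 µM libraries from 104.7 to 508.6 CPM (median 248). Its log2 fold change at 400 µM was 0.98 ± 0.22 at 24 h (adjusted p = 0.00977) and 1.19 ± 0.23 at 48 h (adjusted p = 0.000897), and at 200 µM it was 0.56 ± 0.22 (adjusted p = 1) and 0.87 ± 0.23 (adjusted p = 0.0722). Within batch 2 alone, the 400 µM values were 0.80 (adjusted p = 0.241) and 0.91 (adjusted p = 0.161). Slc3a2 was called with Hb 400 µM at 24 h, at 0.32 ± 0.05 (adjusted p = 2.3e-05), where its libraries at 252.3 to 306.9 CPM (median 278.8) did not overlap the controls at 211.5 to 240.7 CPM (median 224.9). At 48 h and 400 µM it stood at 0.18 ± 0.05 (adjusted p = 0.132).

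Gclc with Hb 400 µM ran from 104 to 129.8 CPM (median 118.4) at 24 h, above all controls (64.63 to 101.1 CPM, median 86.98), and was called at 0.50 ± 0.09 (adjusted p = 0.000116). At 48 h it was called at 0.44 ± 0.09 (adjusted p = 0.00238) with overlapping groups. Within batch 2 alone neither passed, at 0.42 (adjusted p = 0.0568) and 0.35 (adjusted p = 0.179). Gsr was called in all 4 comparisons, with log2 fold changes of 0.34, 0.49, 0.39 and 0.41 in the order 200 and 400 µM at 24 h, then 200 and 400 µM at 48 h. In the 24 h controls Gsr ran from 58.5 to 89.4 CPM (median 82.18), against 95.27 to 113.4 CPM (median 104.4) with 400 µM, without overlap. Gss and Glrx were not called in any comparison of Hb with control, and the Gss estimates lay between 0.10 and 0.17.

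With both terms in the fit, HbHp raised all members but Glrx. At 200 µM, 6 of 7 members were called at 24 h, with 1.93% of all genes, and 6 of 7 at 48 h, with 11.9%. At 400 µM it was 6 of 7 at 24 h, with 5.15% of all genes, and 6 of 7 at 48 h, again with 11.9%. Without the Hp alone libraries the counts were 5 (0.926% of all genes), 6 (8.07%), 6 (3.44%) and 6 (8.9%) in the same order, and within E2 alone they were 4 (0.907%), 5 (3.93%), 5 (1.97%) and 6 (4.66%). With the batch term but no experiment term they were 3 (3.46% of all genes), 6 (24.7%), 4 (7.61%) and 5 (20.4%).

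**Figure D2:**
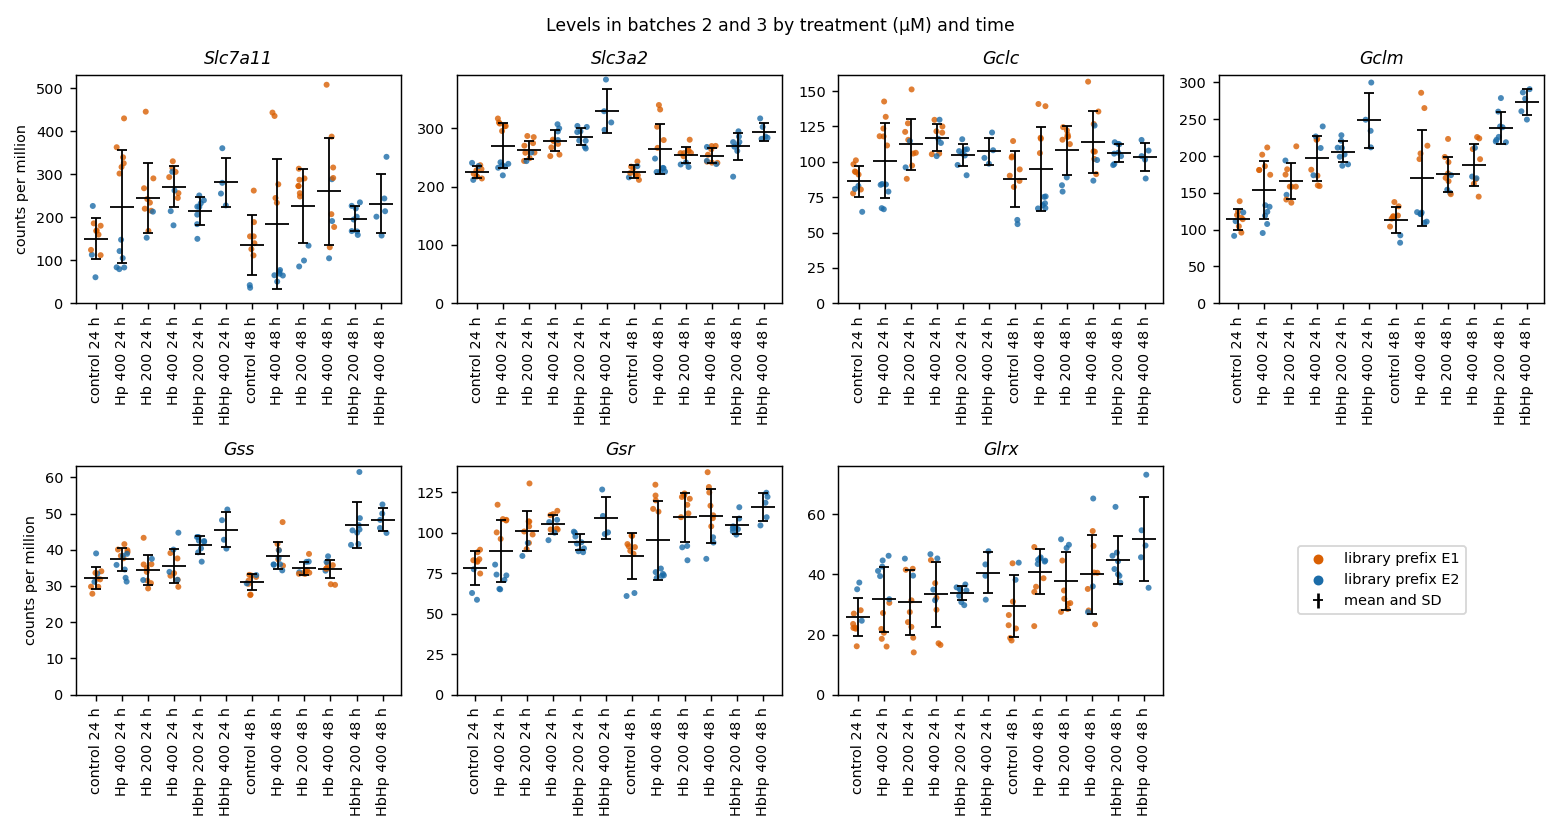
Level of each member in the grouped libraries of batches 2 and 3, in CPM on the vertical axis (each panel with its own scale) against treatment, dose and time. Points are libraries, coloured by experiment E1 or E2, and bars are the mean with 1 SD. Gclm in all HbHp libraries lies above all controls of the same time, while Slc7a11 in the Hp alone groups falls into a high E1 and a low E2 cluster.

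Gclm had the lowest adjusted p of the members in each HbHp comparison with control. With 200 µM it ran from 186.8 to 228.3 CPM (median 206.6) at 24 h and from 218.8 to 278.8 CPM (median 232.7) at 48 h. With 400 µM the 4 libraries at 24 h held 299.9, 249.4, 234.3 and 211.9 CPM, and the 5 at 48 h held 286.5, 260.9, 290.9, 277.9 and 249.6 CPM. No HbHp library overlapped the controls of its time, which reached 138.7 CPM at 24 h and 137.6 CPM at 48 h. The log2 fold changes were 1.22 ± 0.13 (adjusted p = 4.1e-11) and 1.47 ± 0.13 (adjusted p = 7.54e-15) for 200 µM at 24 h and 48 h, and 1.49 ± 0.15 (adjusted p = 1.44e-12) and 1.67 ± 0.14 (adjusted p = 3.72e-16) for 400 µM. Without the Hp alone libraries they were 1.07, 1.30, 1.35 and 1.497, and within E2 alone 1.09, 1.56, 1.36 and 1.75, and all of these were called.

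Slc7a11 was called with HbHp at both doses and times, but its size depended on how the experiments were treated. Its 400 µM libraries held 360.9, 280.3, 227.8 and 255.3 CPM at 24 h and 243.9, 340.8, 214.2, 157.6 and 201.5 CPM at 48 h. The 3 E2 controls at 24 h held 112.9, 226.5 and 60.53 CPM, and the 2 at 48 h held 36.04 and 42.25 CPM. All of the 24 h libraries lay above all 10 controls, whereas at 48 h 1 of 5 did. Of the 9 controls at 48 h, 7 were E1 and ran from 111.4 to 262.2 CPM. At 200 µM, Slc7a11 ran from 149.9 to 250.9 CPM (median 224.6) at 24 h and from 159 to 234.8 CPM (median 198.2) at 48 h, with overlap at both times. The adjusted log2 fold changes were 1.43 ± 0.28 (adjusted p = 0.000759), 1.73 ± 0.29 (adjusted p = 1.52e-05), 1.82 ± 0.32 (adjusted p = 3.14e-05) and 1.97 ± 0.32 (adjusted p = 2.59e-06) for 200 µM at 24 h and 48 h and 400 µM at 24 h and 48 h. Within E2 alone the values were 0.88 (adjusted p = 0.197), 2.42 (adjusted p = 1.36e-05), 1.27 (adjusted p = 0.0285) and 2.66 (adjusted p = 3.49e-06), so the call at 200 µM and 24 h was lost there. With the batch term but no experiment term they were 0.80 (adjusted p = 0.231), 0.82 (adjusted p = 0.1), 1.19 (adjusted p = 0.0663) and 1.06 (adjusted p = 0.0561), and none was called. With neither term they lay between 0.51 and 0.91, again without a call.

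Slc3a2 reached 383.5, 329.2, 297.3 and 310 CPM with HbHp 400 µM at 24 h and 302.3, 285.8, 316.9, 281.8 and 283.7 CPM at 48 h. Each of these libraries exceeded all controls, whose highest values were 240.7 and 242.9 CPM. The log2 fold changes were 0.58 ± 0.08 (adjusted p = 1.15e-08) and 0.43 ± 0.07 (adjusted p = 9.2e-06). At 200 µM they were 0.37 ± 0.06 at 24 h (adjusted p = 7.03e-05) and 0.30 ± 0.07 at 48 h (adjusted p = 0.000994), and the latter was 0.21 within E2 alone (adjusted p = 0.118). Gclc was called in all 4 comparisons at 0.63 and 0.68 for 200 µM at 24 h and 48 h and at 0.66 and 0.64 for 400 µM. With the batch term only these were 0.38, 0.38, 0.42 and 0.34, and 1 call was left (200 µM at 48 h, adjusted p = 0.0477). Gclc held 120.7, 102.8, 98.64 and 108.2 CPM at 400 µM and 24 h and 115.5, 104, 101.5, 88.19 and 107.9 CPM at 400 µM and 48 h. These levels overlapped the controls, which reached 101.1 CPM at 24 h and 114.7 CPM at 48 h.

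Gss was called with HbHp in all 4 comparisons, and at 24 h not in every setting. At 400 µM it held 51.14, 48.19, 40.33 and 42.78 CPM at 24 h and 52.53, 44.66, 50, 48.26 and 46.03 CPM at 48 h, without overlap with controls at 27.86 to 39 CPM and 27.49 to 33.08 CPM. Log2 fold changes were 0.39 ± 0.08 (adjusted p = 0.0012) and 0.53 ± 0.08 (adjusted p = 6.89e-07). At 200 µM the 24 h value of 0.25 ± 0.07 was near the threshold (adjusted p = 0.0421) and was lost without the Hp alone libraries (0.20, adjusted p = 0.204), without control replicate 9 (adjusted p = 0.0886) or without control replicate 10 (adjusted p = 0.0559), whereas the 48 h value was 0.49 ± 0.07 (adjusted p = 7.61e-07). Within E2 alone the 24 h values were 0.14 (adjusted p = 0.696) at 200 µM and 0.28 (adjusted p = 0.168) at 400 µM, and within batch 3 alone 0.20 (adjusted p = 0.405) and 0.35 (adjusted p = 0.111), so both calls were lost there. Gsr held 126.5, 110.2, 99.07 and 100.1 CPM at 400 µM and 24 h and 109.4, 122, 118.4, 124.6 and 104.4 CPM at 400 µM and 48 h, all above the controls. Its log2 fold change was 0.80 at both times (adjusted p = 3.93e-11 and 2.74e-12), and 0.59 and 0.65 at 200 µM.

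Glrx was not called with HbHp when both terms were fitted. It held 43.35, 39.57, 47.73 and 31.61 CPM at 400 µM and 24 h and 35.56, 73.22, 54.72, 49.65 and 45.73 CPM at 400 µM and 48 h, against 16.08 to 37.31 CPM in 24 h controls and 18.01 to 43.94 CPM in 48 h controls. The largest estimate was 0.53 ± 0.21 for 400 µM at 48 h (95% interval 0.11 to 0.96, adjusted p = 0.0892). That comparison was called with the batch term only (0.84, adjusted p = 0.00944), with neither term (0.82, adjusted p = 0.0041), with the replicate block (0.62, adjusted p = 0.0284) and without HbHp replicate 1 (0.63, adjusted p = 0.0497). At 200 µM and 48 h Glrx stood at 0.33 (adjusted p = 0.286) and was called with the batch term only (0.63, adjusted p = 0.0276) and with neither term (0.61, adjusted p = 0.0134). Of the 4 microglial markers 1 was lower in that comparison, and none was called in the other comparisons of Hb, HbHp or Hp alone with control in edgeR. Of the astrocyte markers, Gfap was lower with HbHp 400 µM at 48 h (adjusted p = 0.0332). The part of these cell types in the Glrx values was not tested.

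**Figure D3:**
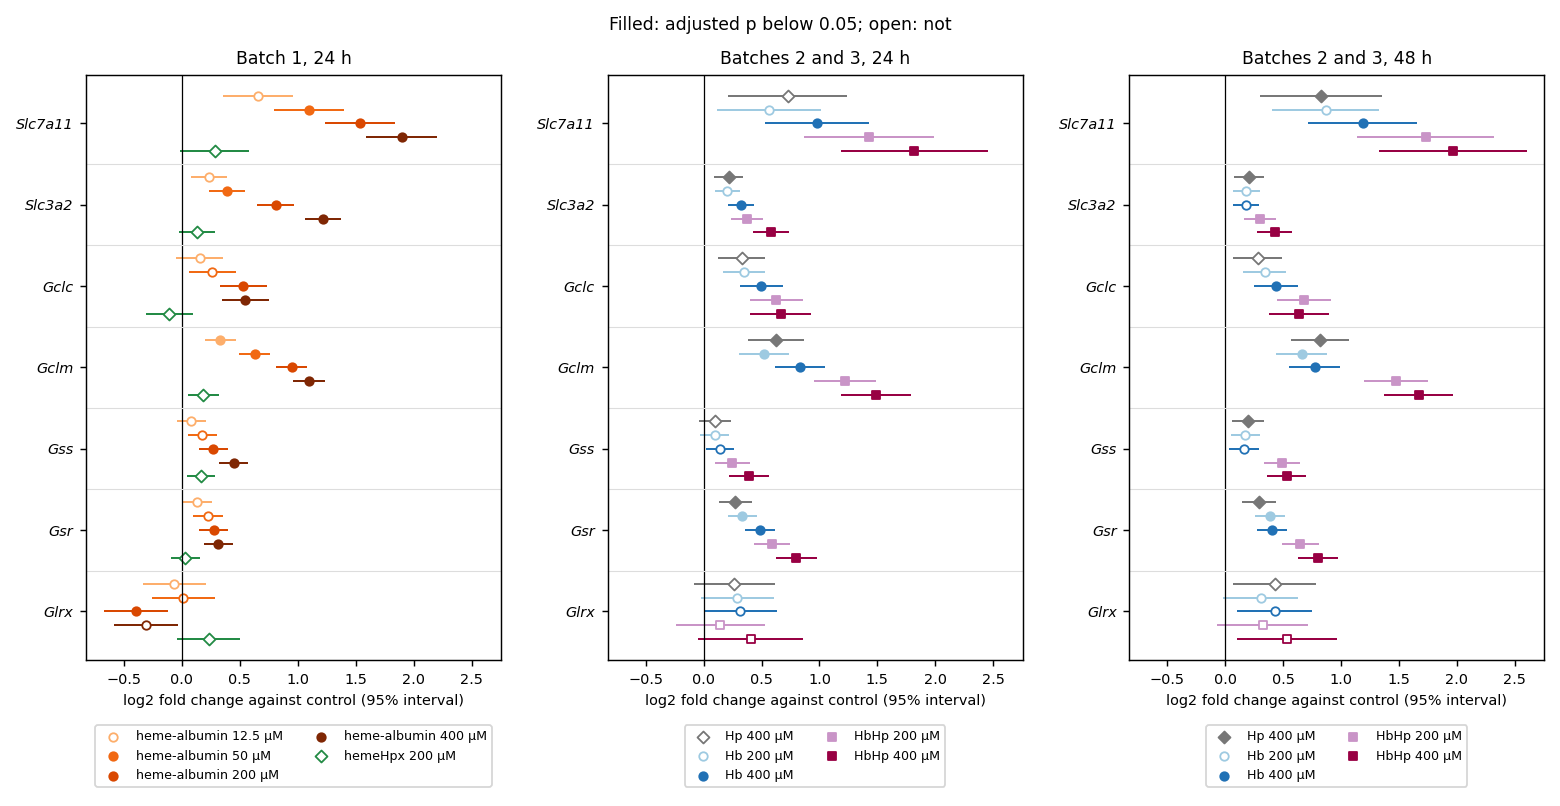
Log2 fold change of each member against the control of the same set and time, on the horizontal axis, with 95% intervals from the fitted model. The panels show heme-albumin and hemeHpx at 24 h, and the treatments of batches 2 and 3 at 24 h and 48 h. Slc7a11 and Gclm have the highest values in most groups, and the 7 hemeHpx estimates lie between -0.11 and 0.28.

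Hp without Hb also moved the members when its libraries were taken as 1 group. At 24 h, 3 of 7 were called, with 0.704% of all genes: Slc3a2 at 0.22 ± 0.06 (adjusted p = 0.0479), Gclm at 0.63 ± 0.12 (adjusted p = 0.00485) and Gsr at 0.27 ± 0.07 (adjusted p = 0.0303). Without control replicate 9 or control replicate 10 of that time, both in batch 3, Gclm was the 1 member called. At 48 h, 5 of 7 were called, with 10.8% of all genes, and Gclm stood at 0.81 ± 0.12 (adjusted p = 3.33e-06). Without control replicate 9 of that time the count was 3.

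Split by experiment, the Hp alone libraries had separate levels. Slc7a11 in the 6 E1 libraries at 24 h ran from 301.9 to 430.3 CPM (median 332.8), and in the 6 E2 libraries from 79.41 to 147.9 CPM (median 94.36). At 48 h the 5 E1 libraries lay at 233.9 to 443.8 CPM (median 276.9) and the 6 E2 libraries at 50.42 to 77.35 CPM (median 66.94). Gclm showed the same division, with 174.6 to 211.7 CPM in E1 and 95.47 to 133.2 CPM in E2 at 24 h, and 196 to 286 CPM against 109.4 to 123.8 CPM at 48 h. In both genes and at both times, no E1 library overlapped an E2 library. The E1 controls ran from 111.9 to 186 CPM for Slc7a11 at 24 h and from 111.4 to 262.2 CPM at 48 h. The 3 E2 controls at 24 h, at 60.53 to 226.5 CPM, spanned the E2 Hp alone libraries, whereas the 2 at 48 h, at 36.04 and 42.25 CPM, lay below all 6 of them. For Gclm the 2 E2 controls at 48 h, at 92.32 and 82.26 CPM, also lay below all 6.

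Against the controls of the same experiment and time, in a fit added after seeing the data, Hp alone called 5 of 7 members in E1 at 24 h (1.63% of all genes) and 7 of 7 at 48 h (20%). Slc7a11 rose there by 1.27 ± 0.24 (adjusted p = 0.00046) and 1.14 ± 0.25 (adjusted p = 0.000464), and Gclm by 0.89 ± 0.10 (adjusted p = 2.56e-09) and 1.14 ± 0.11 (adjusted p = 5.97e-14). In E2 edgeR called 0 members at 24 h (0% of all genes) and 0 at 48 h (0.0533%), with 1 and 4 members at an unadjusted p below 0.05, and these comparisons rest on 3 and 2 controls. Slc7a11 in E2 stood at -0.23 (95% interval -0.80 to 0.34) and 0.83 (0.17 to 1.49), and Gclm at 0.28 (0.04 to 0.52) and 0.54 (0.27 to 0.82). The difference of the Hp alone effect, E1 minus E2, was called for 2 members at 24 h (0.124% of all genes), Slc7a11 at 1.501 ± 0.33 (adjusted p = 0.0332) and Slc3a2 at 0.40 ± 0.08 (adjusted p = 0.00817). At 48 h it was called for 2 members (3.61%), Slc3a2 at 0.38 ± 0.09 (adjusted p = 0.00931) and Gclm at 0.60 ± 0.16 (adjusted p = 0.0304), and that of Slc7a11 was 0.31 (95% interval -0.45 to 1.08).

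With 1 experiment term shared by all groups and both times instead, Hp alone called 5 of 7 members in E1 at 24 h (1.77% of all genes) and 6 of 7 at 48 h (17%), and in E2 0 at 24 h (0.0304%) and 0 at 48 h (0.273%), with 2 and 1 at an unadjusted p below 0.05. In this fit Slc7a11 in E2 stood at 0.16 (95% interval -0.34 to 0.67) and -0.17 (-0.70 to 0.37). The difference between the experiments was then called for 2 members at 24 h (0.34% of all genes), Slc3a2 and Gclm, and for 5 at 48 h (3.74%), with Slc7a11 at 1.60 ± 0.28 (adjusted p = 0.000101). The 48 h differences of Slc7a11, Gclc and Gsr therefore rest on the shared term, while that of Slc3a2 was 0.38 in both fits. How E1 and E2 differed is not given in the sources used here.

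**Figure D4:**
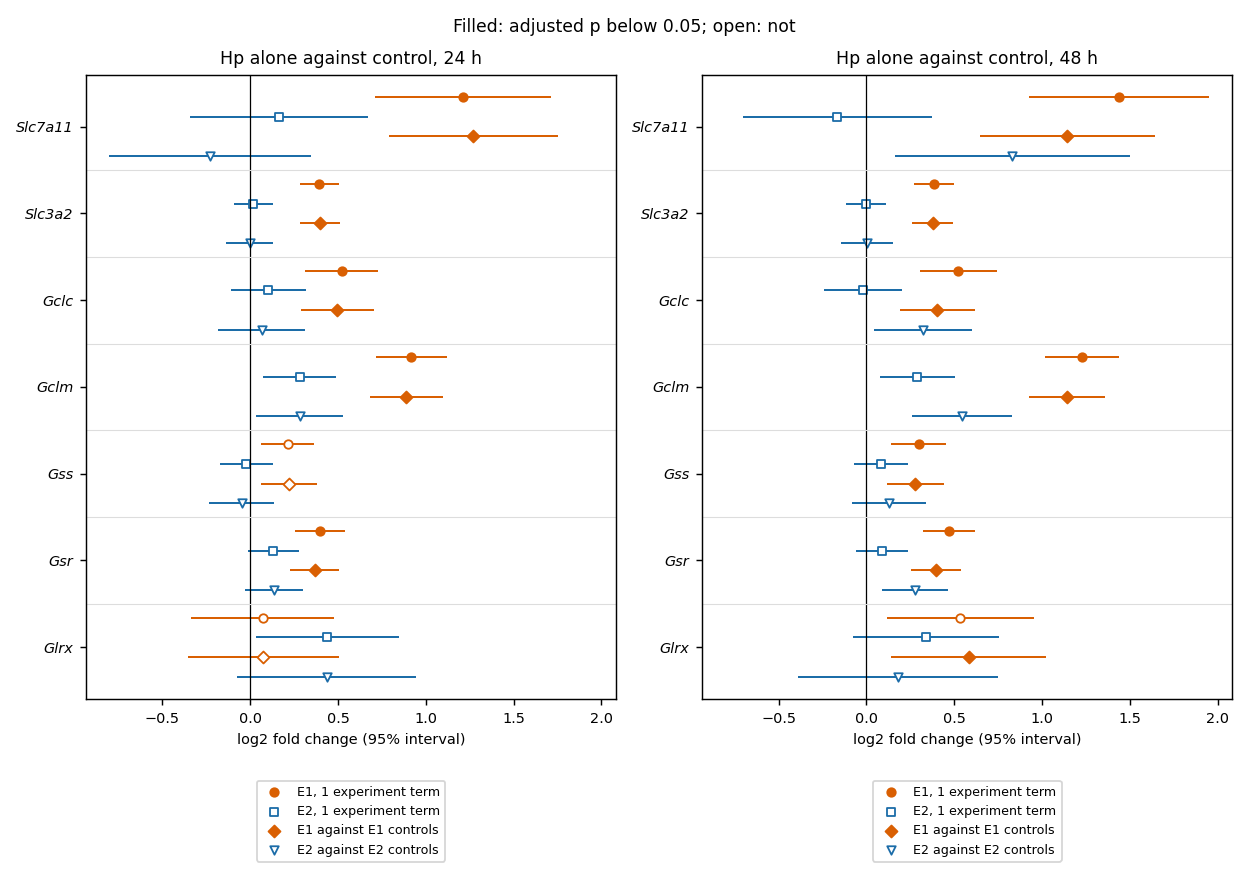
Log2 fold change of each member with Hp alone 400 µM against control (horizontal axis, bars are 95% intervals), at 24 h and 48 h, by experiment. Filled symbols have an adjusted p below 0.05. Circles and squares come from the fit with 1 shared experiment term, and diamonds (E1) and triangles (E2) from the fit against the controls of the same experiment. At 48 h Slc7a11 in E2 lies at -0.17 in the first fit and at 0.83 in the second, and no E2 symbol is filled at either time.

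HbHp exceeded Hb at 200 µM in 1 of 7 members at 24 h (0.607% of all genes), Gclm at 0.70 ± 0.13 (adjusted p = 0.00207), and in 4 of 7 at 48 h (4.98%). The 4 were Slc7a11 at 0.86 ± 0.28 (adjusted p = 0.0481), Gclm at 0.81 ± 0.13 (adjusted p = 3.81e-05), Gss at 0.32 ± 0.07 (adjusted p = 0.0038) and Gsr at 0.26 ± 0.07 (adjusted p = 0.0236). Gss libraries of HbHp at 48 h, at 41.36 to 61.5 CPM (median 45.48), did not overlap those of Hb, at 33.32 to 38.87 CPM (median 33.93). Without the Hp alone libraries 1 member was called at 24 h (0.191% of all genes) and 2 at 48 h (3.2%), Gclm at 0.67 and Gss at 0.28. Within E2 alone, edgeR called 0 members at 24 h (0% of all genes), where Gclm stood at 0.50 (adjusted p = 0.797), and 1 at 48 h (0.329%), Gclm at 0.72 (adjusted p = 0.00022). In E2 at 24 h the 2 Hb libraries were batch 2 and the 8 HbHp libraries batch 3, so only other groups separated treatment from batch. At 48 h, 2 Hb libraries of E2 were batch 2 and 1 was batch 3. With neither batch nor experiment in the fit, Slc7a11 at 48 h stood at -0.20 and Gsr at -0.07, and with the batch term only at 0.06 and 0.0048, so the direction and calls of these 2 genes rest on the adjustment. The Gclm difference was above 0 under each of these settings.

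**Figure D5:**
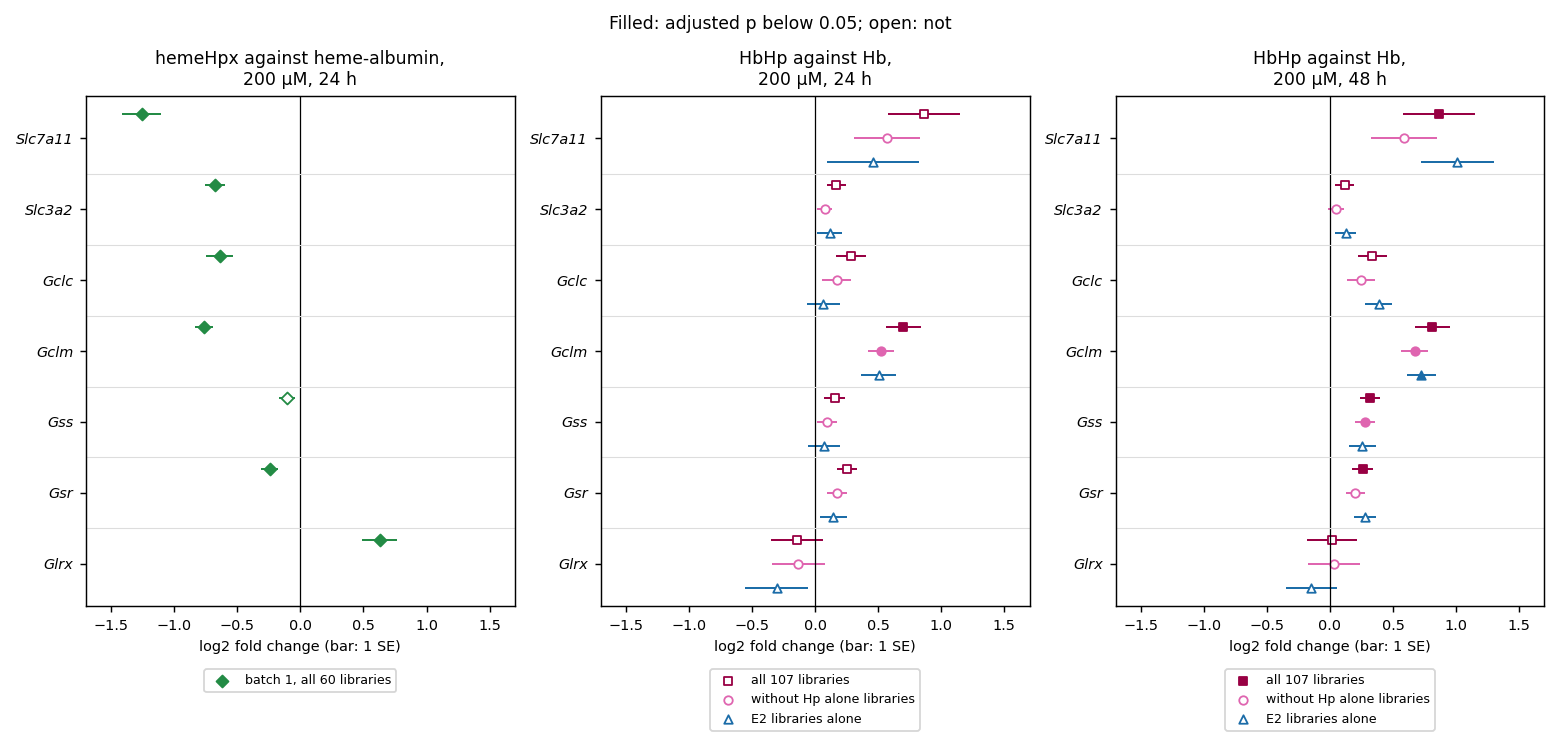
Log2 difference of each member (horizontal axis, bars are 1 SE) between hemeHpx and heme-albumin at 200 µM and 24 h, and between HbHp and Hb at 200 µM at 24 h and 48 h. Filled symbols have an adjusted p below 0.05, and for HbHp against Hb the symbols show all grouped libraries of batches 2 and 3 (squares), those without Hp alone (circles) and E2 alone (triangles). Gclm lies below 0 in the first panel, at -0.77, and above 0 in each fit of the other panels.

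HbHp exceeded Hp alone at 400 µM in 5 of 7 members at 24 h (0.619% of all genes) and in 5 of 7 at 48 h (1.44%). At both times these were Slc7a11, Slc3a2, Gclm, Gss and Gsr. Slc7a11 stood at 1.09 ± 0.28 (adjusted p = 0.0334) and 1.14 ± 0.27 (adjusted p = 0.0101), and Gclm at 0.87 ± 0.13 (adjusted p = 9.43e-06) and 0.86 ± 0.12 (adjusted p = 1.98e-06). The count fell to 2 without HbHp replicate 1 and to 3 without replicate 2 at 24 h, and to 3 without HbHp replicate 2 at 48 h. The call of Slc3a2 at 48 h was lost in 12 of 14 other settings. With the batch term only, 3 members were called at 24 h (1.02% of all genes) and 2 at 48 h (0.583%). Slc7a11 was not called there, at 0.32 at both times (adjusted p = 0.659 and 0.817 in edgeR). Within E2, where both groups share batch and experiment, 6 of 7 were called at 24 h (0.992% of all genes) and 6 of 7 at 48 h (3.37%). In that setting Slc7a11 stood at 1.44 (adjusted p = 8.31e-05) and 1.79 (adjusted p = 2.72e-07), and Gclm at 1.07 (adjusted p = 3.87e-12) and 1.20 (adjusted p = 1.23e-14).

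Dose and time within Hb and HbHp gave no called member in edgeR. Between 400 and 200 µM, 0 members were called for Hb at 24 h (0% of all genes) and at 48 h (0%), and 0 for HbHp at 24 h (0.176%) and at 48 h (0.127%), with 3, 0, 2 and 0 members at an unadjusted p below 0.05 and 0 in DESeq2. The Gclm difference was 0.31 (95% interval 0.10 to 0.52) for Hb and 0.27 (-0.005 to 0.55) for HbHp at 24 h. For the difference of the 200 µM effect between 48 h and 24 h, edgeR and DESeq2 called 0 members, with 0% of all genes called for Hb and 0.0121% for HbHp, and 0 and 1 members at an unadjusted p below 0.05. For Slc7a11 that difference was 0.30 for Hb (95% interval -0.33 to 0.94) and 0.30 for HbHp (-0.36 to 0.97), and these intervals leave room for a change in either direction. Controls at 48 h and 24 h differed in 0 members by edgeR and by DESeq2 (4.5% of all genes), and 0 members had an unadjusted p below 0.05. Within E2 alone, with 3 controls at 24 h and 2 at 48 h, Slc7a11 in controls was lower at 48 h, at -1.67 ± 0.36 (adjusted p = 0.0439). In that setting the difference of the HbHp effect on Slc7a11 between 48 h and 24 h was 1.54 (adjusted p = 0.49).

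Other genes of the pathway were taken from lists that had been chosen with earlier results of these data known. With heme-albumin 200 µM, where 13.6% of all genes were called, 5 of 6 tested NADPH-supplying enzymes rose, with a median log2 fold change of 0.45 against -0.01 for all genes. Among them, Pgd and G6pdx of the pentose phosphate pathway both stood at 0.59 (adjusted p = 1.35e-07 and 4.01e-11), and Idh1 at -0.12 was not called. Of the 6 light chains that pair with Slc3a2, a list that includes Slc7a11, 2 rose and 2 fell. Besides Slc7a11 the riser was the large neutral amino acid transporter Slc7a5 at 0.46 (adjusted p = 8.71e-06), and Slc7a8 at -0.35 (adjusted p = 0.0159) and Slc7a10 at -0.78 (adjusted p = 0.00939) fell. Chac1, which degrades glutathione, rose by 1.37 (adjusted p = 4.35e-06) as the 1 of 8 breakdown genes called, and Cth, which makes cysteine from cystathionine, by 0.82 (adjusted p = 0.00274) as the 1 of 9 other cysteine-supply genes. Of 10 genes listed for glutathione-dependent reactions, Esd rose by 0.64 (adjusted p = 1.87e-11) and Gpx1 fell (log2 fold change -0.29, adjusted p = 0.0102). Of 5 serine and glycine synthesis genes, Shmt2 rose by 0.45 (adjusted p = 0.0029). Txnrd1, the cytosolic thioredoxin reductase, rose by 0.61 (adjusted p = 3.75e-12) among 2 of 6 in its list, and the exporter Abcc1 by 0.59 (adjusted p = 3.05e-10) as 1 of 5. Counts of 1 or 2 in lists of 5 to 10 genes lie near the share of all genes called.

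Genes listed as readouts of NRF2 were called in both heme-albumin and HbHp, and most of those listed for ATF4 in heme-albumin. These lists too were chosen with earlier results of these data known, and the activity of either factor was not tested. With heme-albumin 200 µM, 10 of 10 NRF2 readouts rose (median 0.69) and 6 of 9 ATF4 readouts rose (median 0.60), with Hmox1 at 1.32 (adjusted p = 4.72e-07), Srxn1 at 1.25 (adjusted p = 2.71e-16) and Trib3 at 1.39 (adjusted p = 1.08e-06). With HbHp 200 µM at 48 h (11.9% of all genes called), 10 of 10 NRF2 readouts rose (median 1.09), whereas 1 of 9 ATF4 readouts rose and 1 fell (median 0.05, against -0.01 for all genes). There Gsta3 stood at 2.48 (adjusted p = 1.26e-08), Nqo1 at 1.87 (adjusted p = 3.39e-09), Trib3 at 0.87 (adjusted p = 0.000242) and Ddit4 at -0.60 (adjusted p = 0.000107). The same HbHp comparison called 6 of 6 NADPH-supplying enzymes higher (median 0.55), with Pgd at 0.79 (adjusted p = 7.84e-10), and Slc7a11 was the 1 of 6 light chains called. In hemeHpx against control, 6 of 10 NRF2 readouts and 0 of 9 ATF4 readouts were called in edgeR, with 8.2% of all genes called. Against heme-albumin 7 of 10 and 7 of 9 were lower, with 25.9% of all genes called in either direction. Of the 6 regulators themselves, heme-albumin 200 µM raised Atf4 by 0.48 (adjusted p = 0.000133), Mafg by 0.41 (adjusted p = 2.69e-05) as 2 of the 3 called, and HbHp 200 µM at 48 h raised Bach1 by 0.26 (adjusted p = 0.00267), Mafg by 0.26 (adjusted p = 0.014), also 2 of 3 called. The heme-albumin and HbHp comparisons come from separate batches and times, and the difference between them was not tested. The HbHp counts of these lists come from the fit with both batch and experiment terms and were not recomputed under other settings. For HbHp 200 µM at 48 h, 24.7% of all genes were called with the batch term only and 3.93% within E2 alone.

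Across the 18 condition means, the members other than Glrx had similar profiles. Pearson correlations, each over 18 means centred within batch 1 and within batches 2 and 3 and sharing libraries and controls, were 0.97 for Slc7a11 and Gclc, 0.958 for Gclm and Gsr, and 0.647 for the least alike pair, Slc3a2 and Gsr. Glrx had correlations of -0.255 to 0.388 with the other 6. Among 13885 genes, those most like Slc7a11 were Adh7 (0.976), Gclc (0.97) and Srxn1 (0.969), and those most like Gclc were Slc7a11 (0.97), Adh7 (0.969) and Pip4p2 (0.963). For Gclm they were Cyb5a (0.987), Nqo1 (0.979) and Esd (0.977), for Gss Esd (0.977), Pgd (0.963) and Prdx1 (0.962), and for Gsr Nqo1 (0.961), Cyb5a (0.958) and Gclm (0.958). Slc3a2 was most like Nploc4 (0.972), Ptgs2 (0.965) and Fosl1 (0.963), and Glrx most like Adam8 (0.96), Ccr1 (0.959) and Tlr13 (0.957). These values describe the 18 means and carry no test.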

How the data were processed

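Polyadenylated RNA of 188 libraries was sequenced, and 167 entered comparisons. The authors deposited raw read counts per Ensembl gene and library. The submitters' notes name featureCounts and GRCm39, and the aligner, annotation and use of strand are not given in the sources used here. Gene names, lengths and overlapping genes came from GENCODE M21 on GRCm38, matched by Ensembl identifier, and promoter sequences from RefSeq. Totals were 11038484 to 44199060 counts in batch 1, 32626873 to 54174784 in batch 2 and 15587938 to 38839614 in batch 3. The lowest count of any member in a library was 209 (Glrx, batch 1), and counts cover counting error only.

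Batch 1 was fitted apart from batches 2 and 3 in edgeR 4.0.16 (R 4.3.3), with TMM scaling, filterByExpr (minimum count 10, minimum total 15), the quasi-likelihood F test and Benjamini-Hochberg adjustment over all genes tested (threshold 0.05). The second model held terms for batch and for the prefix E1 or E2 of the library name. CPM used TMM-scaled totals. Overlap of libraries between groups was counted for the members only and not for all genes. DESeq2 1.42.0, other scaling and filters, a GC and length correction, a replicate block, fewer terms, single batches or experiments, Hp alone against the controls of its own experiment, and leaving out each HbHp 400 µM library and each batch 3 control were tried as alternatives. Fits were tested on simulated data. In each list of other genes, up to 2 with the highest and 2 with the lowest log2 fold change in heme-albumin 200 µM or HbHp 200 µM at 48 h were to be named, plus the 3 genes most like each member. The members and lists were chosen with earlier results of these data known. Left out of comparisons were 21 libraries whose labels conflict. A further cell type marker is not reported here, and its list was computed without it.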

Additional observations from a re-analysis of the deposited data

Results flagged for a closer look

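In 8 of 112 sets of a member's values within a group of 4 to 10 libraries, 1 library lay farther from the rest than Dixon's 95% limit, and chance gives about 1 in 20. In hemeHpx, replicate 10 held 327.2 CPM of Slc7a11 (next highest 241.7) and replicate 4 held 54.58 CPM of Glrx (next 40.28). In heme-albumin 200 µM, replicate 8 held 121.8 CPM of Gsr (next 109). In Hb 200 µM at 24 h, replicate 5 was highest for both Slc7a11, at 445.9 CPM (next 290.7), and Gsr, at 130.3 CPM (next 106.8). In HbHp 200 µM at 48 h, replicate 1 was lowest for Slc3a2, at 217 CPM (next 261.2), and highest for Gss, at 61.5 CPM (next 48.74), and for Glrx, at 62.51 CPM (next 47.28).

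The effect of Hp alone was compared between the experiments E1 and E2, with fitted differences given as E1 minus E2 on the log2 scale from edgeR. With 1 experiment term shared by all groups and times, the difference at 24 h was 0.3768 for Slc3a2 (adjusted p = 4.66e-05) and 0.6369 for Gclm (adjusted p = 0.000391). At 48 h it was 1.603 for Slc7a11 (adjusted p = 0.000101), 0.3833 for Slc3a2 (adjusted p = 5.83e-06), 0.5428 for Gclc (adjusted p = 0.00146), 0.9375 for Gclm (adjusted p = 5.29e-09) and 0.3808 for Gsr (adjusted p = 0.000891). With each experiment set against its own controls of the same time, it was 1.501 for Slc7a11 (adjusted p = 0.0332), 0.4028 for Slc3a2 (adjusted p = 0.00817) and 0.6082 for Gclm (adjusted p = 0.0513) at 24 h. At 48 h it was 0.3758 for Slc3a2 (adjusted p = 0.00931) and 0.5963 for Gclm (adjusted p = 0.0304), while Slc7a11 at 0.3131 (adjusted p = 0.687), Gclc at 0.08247 (adjusted p = 0.821) and Gsr at 0.121 (adjusted p = 0.556) were not called.

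Libraries whose labels conflict entered no comparison, and some of their medians lay above the highest of the 19 controls. These CPM were scaled with the conflicting libraries included, so the control values differ slightly from those of the comparisons. For Slc3a2 (highest control 247.4 CPM), the median was 310 CPM in the 7 libraries with Hpx in their name at 24 h, 331.4 CPM in the 7 at 48 h, 299.2 CPM in the 3 with HbHpx at 24 h and 313.6 CPM in the 3 at 48 h. For Gss (highest control 38.71 CPM), it was 41.06 CPM with Hpx at 24 h, 40.72 CPM with HbHpx at 24 h and 39.58 CPM with HbHpx at 48 h. Gsr had a median of 106.8 CPM with Hpx at 24 h (highest control 98.17 CPM). Glrx had medians of 59.55 CPM and 58.62 CPM with HbHpx at 24 h and 48 h (highest control 44.36 CPM).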

How the results depend on the processing

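Of 2604 recomputed member values, 2330 kept their direction and their side of the threshold. With the direction kept, 143 lost a call and 67 gained one. A further 60 changed direction with no call in the main fit or the alternative. The other 4 changed direction with a call in the main fit or the alternative, and are here named reversed. The causes were not tested. Reversed were Slc3a2 with Hp alone within E2, at -0.01556 (24 h) and -0.002281 (48 h), and HbHp against Hb at 48 h with neither batch nor experiment term, where Slc7a11 stood at -0.20 and Gsr at -0.06739.

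Numbers of members called moved as follows in batch 1. For heme-albumin 12.5 µM there were 2 with DESeq2, 2 with at least 10 counts in every library, 2 with the replicate block, 2 with the GC and length correction, 2 with both, and 0 with only the groups compared. For 50 µM, the replicate block with the correction gave 5. For hemeHpx against control DESeq2 gave 1, the stricter filter 1, the replicate block 2, the correction 1 and both 3. From 12.5 to 50 µM DESeq2, the replicate block, the correction and both gave 1 each, and from 200 to 400 µM the correction gave 2, both gave 3 and only the groups compared gave 0.

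In batches 2 and 3, Hb 200 µM at 24 h gave 1 with the batch term only, 1 with neither term, 0 in batch 3 alone, 0 in E2 alone, 4 without Hp alone and 4 with Hp alone split by experiment. Hb 200 µM at 48 h gave 4 with DESeq2, 4 with the replicate block, 1 with the batch term only, 1 with neither term, 0 in batch 3 alone, 4 without Hp alone and 5 with the split. Hb 400 µM at 24 h gave 3 with the batch term only, 3 with neither term, 3 in batch 2 alone and 2 in batch 3 alone, and at 48 h 1, 1, 2 and 1. HbHp 200 µM at 24 h gave 3 with the batch term only and 3 with neither. Hp alone at 24 h gave 1 with the batch term only, 0 in batch 3 alone, 5 in E1 alone and 0 in E2 alone, and at 48 h 2 with the batch term only, 3 with neither, 0 in batch 3 alone and 0 in E2 alone. HbHp against Hb at 24 h gave 3 in batch 3 alone and 0 in E2 alone, and at 48 h 2 with the batch term only, 2 with neither, 1 in batch 3 alone, 1 in E2 alone, 2 without Hp alone and 2 with the split. HbHp against Hp alone gave 3 with the batch term only and 3 with neither at 24 h, and 2 and 2 at 48 h. Controls at 48 h against 24 h gave 1 in E2 alone, Slc7a11.

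Leaving out single libraries gave 1 to 1 members for Hp alone at 24 h, 3 to 4 for Hp alone at 48 h, 2 to 5 for HbHp against Hp alone at 24 h and 3 to 4 at 48 h. Hp alone of each experiment against its own controls (added after seeing the data) gave 2 members for the difference between E1 and E2 at 48 h, where the shared experiment term gave 5. Library-name codes did not meet the rule for pairing, which asks every pair to correlate above 0.1: same-code libraries of different groups correlated between -0.757 and 0.885 in batch 1 (median 0.237), and between -0.846 and 0.915 in batches 2 and 3 (median 0.201). Libraries of other codes had medians of -0.0289 and -0.0148, and 23 of the 60 batch 1 libraries and 13 of the grouped libraries of batches 2 and 3 had their highest mean correlation with their own code. Of the same-code pairs, 98 of 169 in batch 1 and 166 of 291 in batches 2 and 3 were above 0.1. The main fits treated all libraries as independent, and whether libraries of the same code share an origin was not tested. The HbHp and Hp alone comparisons rest on few controls in batch 3 and on groups spread unevenly over E1 and E2.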

Other observations

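In 20 libraries the treatment label reads HbHpx while their titles name haptoglobin and their library names hold Hpx or HbHpx, and in 1 control the title and library name give different times. With CPM scaled over all libraries of batches 2 and 3, these included, Slc7a11 in the 7 Hpx libraries ran from 192 to 310.2 CPM (median 260.2) at 24 h and from 119.9 to 419.4 CPM (median 197.9) at 48 h, and in the 3 HbHpx libraries from 109 to 173 CPM at 24 h and from 123.2 to 143.8 CPM at 48 h. Gclm in the Hpx libraries ran from 107.7 to 137.3 CPM at 24 h and from 101.2 to 178 CPM at 48 h, and in the HbHpx libraries from 118.5 to 153.3 CPM and from 125.6 to 129.3 CPM, where the 19 controls ran from 83.02 to 142.1 CPM. The control with conflicting times held 56.51 CPM of Slc7a11 and 102.8 CPM of Gclm.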
